A study of Mus musculus with 6 samples.

Results

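The genes described here are 38 that carry glucose carbon from the blood to the mitochondria of the retina: 4 transporters of glucose and lactate, 15 enzymes of glycolysis, 2 subunits of lactate dehydrogenase, 4 genes of pyruvate dehydrogenase and 13 of the tricarboxylic acid (TCA) cycle and its malate dehydrogenases. They were taken by gene symbol from a table of 49997 genes, in which all 38 were found. RNA was sequenced from 6 mouse retinas, 1 retina per library, with 3 libraries labelled Samd7 KO and 3 labelled wild type. The first group has the genotype label Samd7 knockout (-10A) and was taken at postnatal day 31, and the second has the label c57Bl6/j wt and was taken at postnatal day 36. All were labelled male, no strain is stated for the KO retinas, and age and genotype cannot be told apart. Whether each retina came from its own mouse is not stated, and p-values therefore reflect only the variation among these retinas, which may be technical. The question behind the series is whether photoreceptor identity depends on Samd7, a photoreceptor gene.

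Samd7 itself had 57837, 45755 and 44932 normalized reads in the KO-labelled libraries 1, 2 and 3 and 6349, 8141 and 8122 in wild type 1, 2 and 3, so that the targeted gene was higher under the KO label and directions are given for the libraries labelled Samd7 KO, called KO-labelled. The unit is a normalized read, that is, reads counted on a gene after the authors scaled each library by its size factor. Recovered reads summed to 44231112 to 62813549 per library. Rod markers (rods are the dim-light photoreceptors that make up most of the mouse retina) were lower in the KO-labelled libraries: 6 of 9 passed the test and 0 were higher, with a median log2 fold change of -0.47. Their summed level was 1300582 to 1372379 normalized reads in the KO-labelled libraries and 2080924 to 2261073 in wild type. Of 9 cone markers, 4 were higher and 1 lower, with a median log2 fold change of 0.27. Their summed level was 526833 to 545224 normalized reads in the KO-labelled libraries and 131760 to 135190 in wild type. Of 8 markers of the pigment epithelium, the tissue behind the retina, 6 were lower, with a summed level of 1243 to 2343 normalized reads in the KO-labelled libraries and 3876 to 6295 in wild type. Bipolar markers were higher in 1 of 7, microglia markers in 8 of 10, red blood cell markers in 5 of 5, endothelial and pericyte markers in 1 of 8 and astrocyte markers in 1 of 3, each with 0 lower. Of all tested genes, 6.79% were higher and 5.21% lower by the same limma test. At an unadjusted p under 0.05, 4 bipolar and 5 endothelial and pericyte markers were higher. DESeq2 called 3 endothelial and pericyte markers higher, and 5 rod and 4 pigment epithelium markers lower. Müller glia markers were higher in 2 and lower in 1 of 8. Amacrine, ganglion and horizontal cell markers (6, 6 and 4 tested) had 0 called by limma, edgeR or DESeq2, and 1, 1 and 1 at an unadjusted p under 0.05. Lens markers (3 of 7 tested, 0 called by limma, edgeR or DESeq2 and 1 at an unadjusted p under 0.05) summed to 3967 normalized reads in wild type 3 against 84.0 to 147 in the KO-labelled libraries and 103 and 118 in the other wild-type libraries. All markers of these lists had reads in at least 1 library.

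Glycolysis splits glucose into pyruvate in the cytosol. Pyruvate can then be reduced to lactate by lactate dehydrogenase and exported, or enter mitochondria, where pyruvate dehydrogenase turns it into acetyl-CoA for the TCA cycle. Photoreceptors are known for aerobic glycolysis: they turn much of their glucose into lactate although oxygen is present, and the pigment epithelium passes them glucose and takes up their lactate.

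Most glycolytic enzymes had less transcript in the KO-labelled libraries, and no gene of pyruvate dehydrogenase or the TCA cycle was called lower. Of 15 glycolytic enzymes, 12 fell, 0 rose and 3 did not pass the test. The test was limma-trend on log2(normalized reads + 1) over 20277 genes, two-sided, with a gene called at a Benjamini-Hochberg adjusted p under 0.05. By that rule 5.21% of all tested genes were lower and 6.79% higher, and among genes with a mean of at least 1000 normalized reads, where changes of this size are easier to call, 7.43% were lower and 8.36% higher. The 15 enzymes stood well above that level, with wild-type means from 10630 for Pfkm to 340882 for Pkm. The share called among genes of their own level was not counted. The median log2 fold change of the 15 enzymes was -0.35, against 0.00178 for all tested genes. Of the 17 genes of pyruvate dehydrogenase and the TCA cycle, 0 fell and 1 rose by limma, with a median log2 fold change of -0.00885. At an unadjusted p under 0.05, 2 of those 17 were lower and 2 higher, and edgeR and DESeq2 each called 0 lower and 1 higher. Among glycolytic enzymes these tools called 12 lower and 0 higher. No test compared the groups of genes with each other.

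The 15 glycolytic enzymes together took 2.61%, 2.38% and 2.58% of the reads in the KO-labelled libraries 1, 2 and 3, and 3.27%, 2.94% and 2.97% in wild type 1, 2 and 3. All 3 KO-labelled libraries lay below all wild-type libraries. The 17 genes of pyruvate dehydrogenase and the TCA cycle took 0.397%, 0.395% and 0.403% against 0.387%, 0.389% and 0.382%, slightly more in each KO-labelled library. Their summed normalized reads were 198132, 199444 and 205746 against 208198, 200871 and 199379, with groups that overlapped. The small rise in share thus depended on the scaling. Per library, the median log2 ratio of the glycolytic enzymes to their wild-type mean was -0.31, -0.39 and -0.31 in the KO-labelled libraries and 0.14, -0.08 and -0.04 in wild type. The same median for pyruvate dehydrogenase and the TCA cycle was -0.03, -0.05 and 0.02 against 0.03, -0.01 and -0.03, with groups that overlapped. For 13 of the 15 enzymes every KO-labelled library was below every wild-type library, an order that 15.2% of all tested genes showed, while 31.1% had no overlap in either direction. Among genes with a mean of at least 1000 normalized reads, 38.2% had no overlap. Of the 17 genes of pyruvate dehydrogenase and the TCA cycle, 4 had all KO-labelled libraries below all wild-type libraries and 3 had them above. Wild type 1 was the highest of the wild-type libraries for 14 of the 15 glycolytic enzymes. Without it their median log2 difference was -0.28 and 10 of them were called lower.

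The rod markers moved in the same direction as the glycolytic enzymes (6 of 9 lower, summed level 1300582 to 1372379 normalized reads in the KO-labelled libraries and 2080924 to 2261073 in wild type). Of the cone markers, 4 of 9 were higher and 1 lower, with log2 fold changes from -1.30 to 3.25 and a median of 0.27. Their sum was higher, at 526833 to 545224 in the KO-labelled libraries and 131760 to 135190 in wild type, and does not describe each marker. In RNA from whole retina, fewer cells of a type and less RNA per cell cannot be told apart, and the part of the rod and cone differences in the results on glycolysis was not tested.

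**Figure D1:**
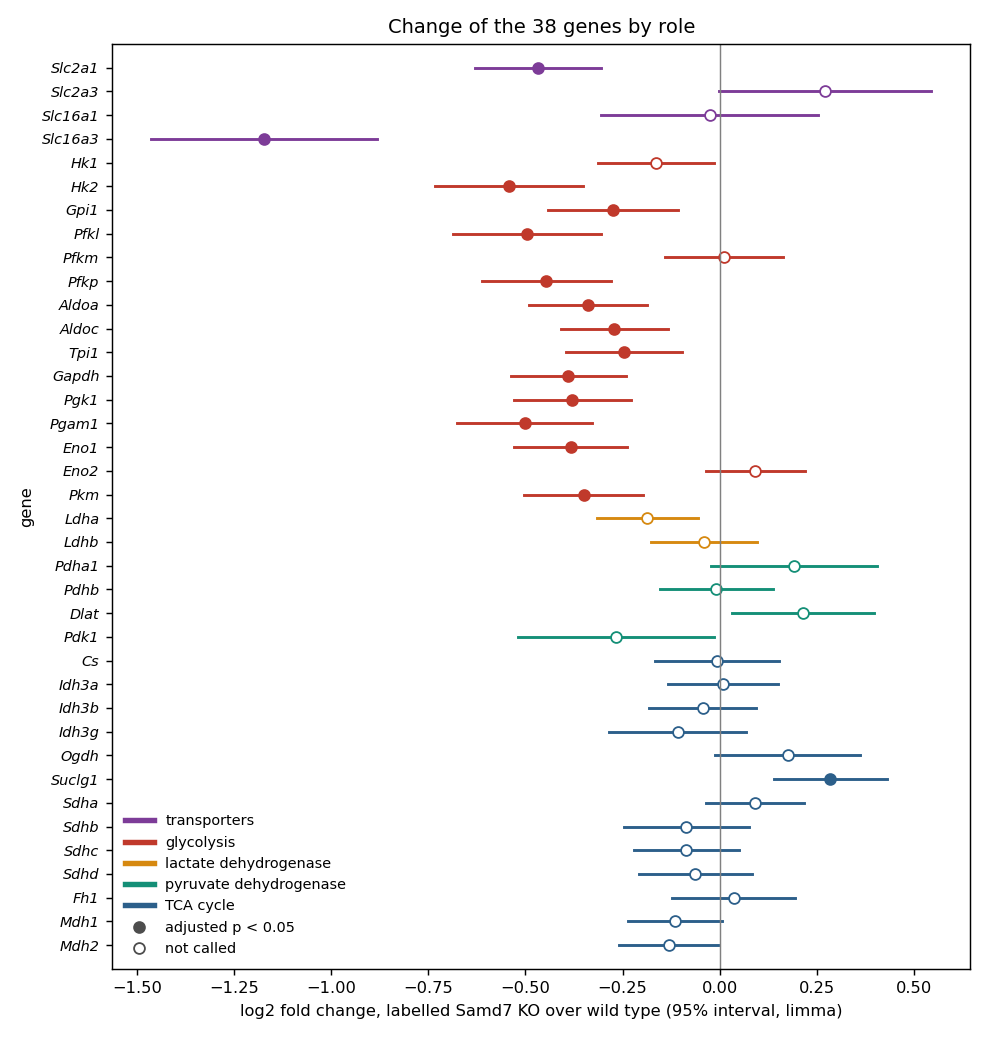
Log2 fold change of each of the 38 genes (x axis, libraries labelled Samd7 KO over wild type, with the 95% interval from limma) by gene (y axis), colored by role; filled points passed an adjusted p of 0.05. The 12 called glycolytic enzymes lie between -0.54 and -0.25, while pyruvate dehydrogenase and TCA cycle genes lie on either side of 0, from -0.27 to 0.28.

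Glucose enters retinal cells through facilitative transporters. Slc2a1, the gene of the main retinal glucose transporter GLUT1 (chromosome 4, 119108745 to 119137330, GRCm38), had 19238, 17951 and 17771 normalized reads in the KO-labelled libraries and 28027, 23483 and 24678 in wild type. The groups did not overlap, and Slc2a1 was 1.39-fold lower (log2 difference -0.47 with SE 0.07, adjusted p = 0.00139 by limma). Slc2a3, which encodes the neuronal transporter GLUT3, had 2503, 3525 and 3077 against 2822, 2219 and 2468. KO 1 lay inside the wild-type range, and the difference did not pass the test (log2 difference 0.27 with a 95% interval from -0.003 to 0.55, adjusted p = 0.193 by limma); without KO 1 it was called (0.40, limma adjusted p = 0.0264). Per kilobase of transcript, wild-type Slc2a1 stood at 7790.2 normalized reads and Slc2a3 at 632.

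Slc16a3, which encodes the lactate exporter MCT4 of strongly glycolytic cells (chromosome 11, 120948484 to 120959000), showed the largest change of the 38 genes. Its normalized reads were 3292, 2680.3 and 3093 in the KO-labelled libraries and 8666, 6056 and 5967 in wild type. All KO-labelled libraries were below all wild-type libraries, and wild type 1 stood above the other wild-type libraries. Slc16a3 was 2.28-fold lower (log2 difference -1.17 with SE 0.13, adjusted p = 1.04e-04 by limma), and the call held in all 17 other ways to run the test, with adjusted p up to 7.55e-04. Slc16a1, the gene of the broadly expressed monocarboxylate transporter MCT1, had 8787, 13112 and 8911 against 9806, 10583 and 10435. KO 2 was above all other libraries and KO 1 and KO 3 were below all wild-type libraries, so that the group means were nearly equal (log2 difference -0.03 with a 95% interval from -0.30 to 0.25, adjusted p = 0.927 by limma). Slc16a8, the lactate transporter MCT3 of the pigment epithelium, is in the list of other transporters and was 3.64-fold lower, at 153, 106 and 201 against 690.5, 632 and 352 (log2 difference -1.84 with SE 0.26, adjusted p = 6.50e-04 by limma). The 6 of 8 pigment epithelium markers that fell, with a summed level of 1243 to 2343 normalized reads in the KO-labelled libraries and 3876 to 6295 in wild type, moved with Slc16a3 and Slc16a8; the part of that tissue in these changes was not tested. Bsg, basigin, the partner that carries MCT1 and MCT4 to the cell surface, had 80024, 76354 and 83205 against 80682, 80158 and 86168 and did not pass (log2 difference -0.04 with a 95% interval from -0.17 to 0.08, adjusted p = 0.682 by limma).

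Hexokinase traps glucose in the cell as glucose 6-phosphate. Hk1, the main hexokinase of neurons, had 61522, 66548 and 64668 normalized reads in the KO-labelled libraries and 79343, 68536 and 68499.9 in wild type. All KO-labelled libraries were lower, but the difference did not pass the test (log2 difference -0.16 with a 95% interval from -0.31 to -0.01, adjusted p = 0.151 by limma); it was called once each library's trend with transcript length was removed (limma adjusted p = 0.0164). Hk2, the isozyme that photoreceptors use for aerobic glycolysis (chromosome 6, 82725025 to 82774454), had 8609.5, 9997 and 8481 against 14333, 13210.2 and 11925 and was 1.46-fold lower (log2 difference -0.54 with SE 0.09, adjusted p = 0.00146 by limma). Gpi1, which turns glucose 6-phosphate into fructose 6-phosphate, had 54818, 49395 and 55608 against 71857, 60747 and 61150.4 and was 1.21-fold lower (log2 difference -0.28 with SE 0.08, adjusted p = 0.0360 by limma). The Gpi1 call was lost in 8 of 17 alternatives, among them the removal of any library but KO 1, with limma adjusted p up to 0.105.

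Phosphofructokinase catalyzes the committed step of glycolysis and has 3 subunit genes, of which 2 fell. Pfkl, the liver-type subunit, had 38672, 34503 and 38533 normalized reads in the KO-labelled libraries and 60651, 48015 and 49509 in wild type, 1.42-fold lower (log2 difference -0.50 with SE 0.09, adjusted p = 0.00278 by limma). Pfkp, the platelet-type subunit, had 19522, 18034 and 19710.1 against 28843, 23986 and 25354, 1.37-fold lower (log2 difference -0.45 with SE 0.08, adjusted p = 0.00226 by limma). In both genes every KO-labelled library was below every wild-type library. Pfkm, the muscle-type subunit, had 10795, 10113 and 11205 against 11201, 10165 and 10524, with overlapping groups (log2 difference 0.01 with a 95% interval from -0.14 to 0.16, adjusted p = 0.951 by limma). As a share of the 3 genes per transcript length, Pfkm was 15.4% ± 0.887 in wild type and 20.3% ± 0.347 in the KO-labelled libraries (SD, n = 3), and Pfkl was 58.5% ± 1.27 in wild type and 54.5% ± 0.513 in the KO-labelled libraries.

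Aldolase and triose phosphate isomerase yield the triose phosphates. Aldoa, the most abundant of the 38 genes per transcript length (185829.7 normalized reads per kilobase in wild type), had 229596, 208310.2 and 226682 normalized reads in the KO-labelled libraries and 308722, 260089.6 and 273554 in wild type. It was 1.27-fold lower with groups that did not overlap (log2 difference -0.34 with SE 0.07, adjusted p = 0.00749 by limma). Aldoc, the brain aldolase, had 44140.0, 41217 and 46125 against 55387, 50894 and 52316 and was 1.21-fold lower (log2 difference -0.27 with SE 0.06, adjusted p = 0.0156 by limma); its call was lost without wild type 3 (limma adjusted p = 0.0737) and without a filter, where that of Aldoa was lost as well (0.0521 and 0.0512). Tpi1, the isomerase, had 84545, 74087 and 80937 against 101945, 90899 and 91258, 1.19-fold lower (log2 difference -0.25 with SE 0.07, adjusted p = 0.0358 by limma). The groups did not overlap, yet the Tpi1 call was lost in 9 of 17 alternatives, among them the removal of any library but KO 1, with limma adjusted p up to 0.116.

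The steps from glyceraldehyde 3-phosphate to pyruvate recover energy as ATP, and of their 6 genes here 5 fell and Eno2 did not pass. Gapdh, often used as a reference gene, had 157683, 146424 and 162174 normalized reads in the KO-labelled libraries and 222066, 189386 and 200432 in wild type, 1.31-fold lower (log2 difference -0.39 with SE 0.07, adjusted p = 0.00254 by limma). Pgk1, which makes the first ATP (chromosome X, 106187100 to 106203699), had 26086, 25895 and 26153 against 37381, 31591 and 32929, 1.30-fold lower (log2 difference -0.38 with SE 0.07, adjusted p = 0.00356 by limma). The KO-labelled libraries were close together and all below wild type. Pgam1, the mutase of the next step (chromosome 19, 41911871 to 41918665), had 22481, 22762 and 22659 against 36662, 29588 and 30392, 1.42-fold lower (log2 difference -0.50 with SE 0.08, adjusted p = 0.00131 by limma). After Hk2 it had the largest fall of the glycolytic enzymes. Eno1, the ubiquitous enolase, had 228585, 209234 and 233506 against 316749, 275424 and 284208, 1.31-fold lower (log2 difference -0.38 with SE 0.07, adjusted p = 0.00245 by limma). Eno2, the neuronal enolase, had 40356, 38211 and 41191 against 37992, 36248 and 38083; every KO-labelled library was slightly above wild type, but the difference did not pass (log2 difference 0.09 with a 95% interval from -0.04 to 0.22, adjusted p = 0.346 by limma). Pkm, pyruvate kinase of the last step, had 274983, 247763 and 278455 against 374275, 328329 and 320044, 1.28-fold lower (log2 difference -0.35 with SE 0.07, adjusted p = 0.00665 by limma).

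Several of these genes have near-identical copies in the mouse genome, and the treatment of reads that match more than 1 place is not stated, so their levels are uncertain to that extent. Of 4 such copies with rows of their own, Aldoart1 had 1982 normalized reads in wild type (mean, n = 3) and Eno1b 774, and neither passed the test (adjusted p = 0.170 and 0.228 by limma), though both were called lower without KO 1 (adjusted p = 0.0281 and 0.0307 by limma). Aldoart2, a copy of the aldolase A gene, had 697, 651 and 683 against 370.5, 386 and 342 and rose 1.85-fold (log2 difference 0.89 with SE 0.11, adjusted p = 1.85e-04 by limma), opposite to Aldoa.

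Lactate dehydrogenase, whose A subunit favors lactate formation, did not pass the test. Ldha had 150471, 145374 and 149281 normalized reads in the KO-labelled libraries and 182569, 161736 and 162932 in wild type, with all KO-labelled libraries below wild type (log2 difference -0.19 with a 95% interval from -0.32 to -0.06, adjusted p = 0.0667 by limma). It was called with edgeR and TMM factors (adjusted p = 0.0484) or upper-quartile factors (adjusted p = 0.0185). Ldhb, the B subunit, had 19267, 18336 and 20144 against 20378, 19353 and 19598, with overlapping groups (log2 difference -0.04 with a 95% interval from -0.18 to 0.10, adjusted p = 0.736 by limma). Of lactate dehydrogenase transcripts per length, Ldha made up 86.3% ± 0.488 in wild type and 85.1% ± 0.453 in the KO-labelled libraries (SD, n = 3).

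**Figure D2:**
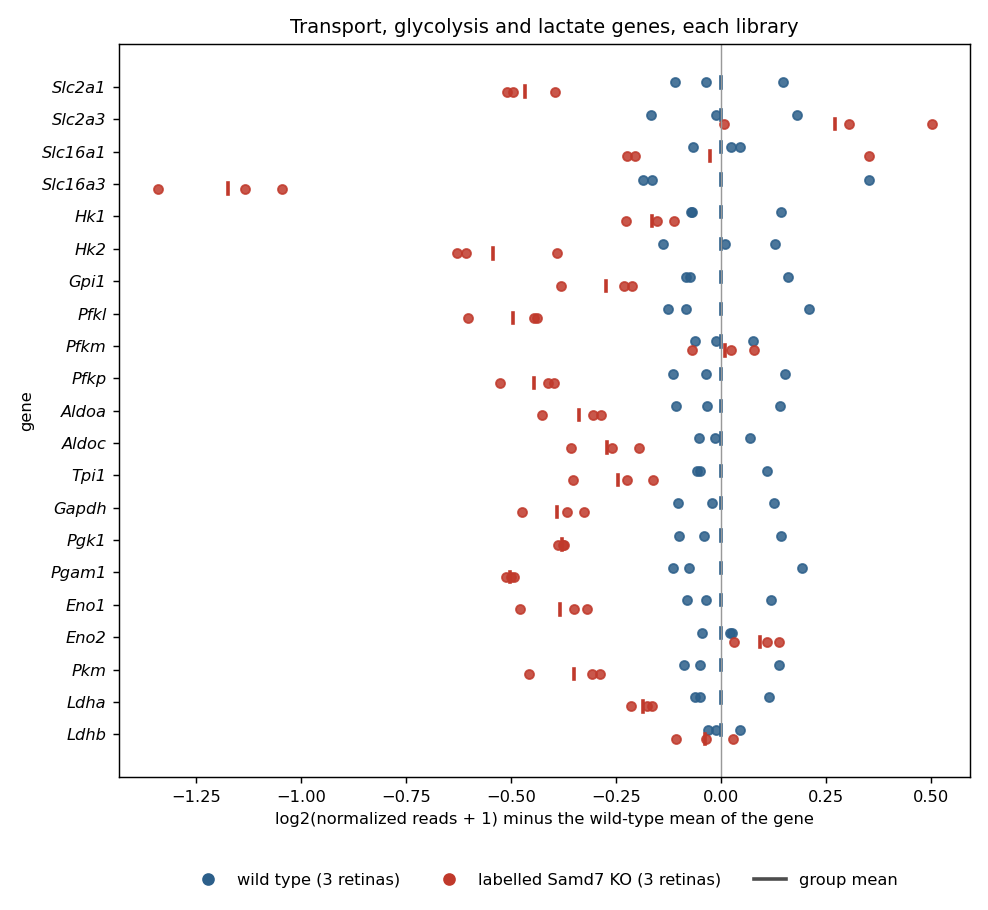
Level of each transport, glycolysis and lactate gene (y axis) in each library, as log2(normalized reads + 1) minus the gene's wild-type mean (x axis); points are libraries and short bars are group means. For 13 of the 15 glycolytic enzymes all points of the KO-labelled libraries lie below wild type, while Pfkm overlaps and Eno2 lies above; Slc16a3 lies farthest from 0.

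Many glycolytic genes are textbook targets of hypoxia-inducible factors, which bind the core ACGTG or GCGTG. The promoters of Slc16a3, Hk2, Pgam1 and Pgk1, 4 genes that fell and hold ACGTG, are shown from 250 bases before the RefSeq start (GRCm38.p6). They run up to that start or, for Slc16a3, to the last base before an exon of another transcript, 5′ to 3′ on the gene's strand. Capitals mark either core, ACGTG or GCGTG, on either strand.
Slc16a3 (chr11:120948817-120949052, plus strand): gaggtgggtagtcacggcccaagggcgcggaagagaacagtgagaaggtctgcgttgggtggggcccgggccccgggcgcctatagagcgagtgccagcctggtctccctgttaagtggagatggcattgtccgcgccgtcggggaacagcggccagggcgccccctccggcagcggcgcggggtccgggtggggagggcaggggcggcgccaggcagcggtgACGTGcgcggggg
Hk2 (chr6:82774455-82774704, minus strand): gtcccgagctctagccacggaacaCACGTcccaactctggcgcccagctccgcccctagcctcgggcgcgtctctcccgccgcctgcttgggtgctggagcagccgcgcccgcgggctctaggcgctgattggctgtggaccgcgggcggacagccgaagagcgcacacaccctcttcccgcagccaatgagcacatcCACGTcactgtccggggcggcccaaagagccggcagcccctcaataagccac
Pgam1 (chr19:41911621-41911870, plus strand): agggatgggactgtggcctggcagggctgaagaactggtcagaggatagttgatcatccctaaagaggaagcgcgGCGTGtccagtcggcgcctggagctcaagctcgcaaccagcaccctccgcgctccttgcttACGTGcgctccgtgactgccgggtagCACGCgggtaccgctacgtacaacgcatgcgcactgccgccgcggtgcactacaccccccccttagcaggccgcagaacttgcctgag
Pgk1 (chrX:106186850-106187099, plus strand): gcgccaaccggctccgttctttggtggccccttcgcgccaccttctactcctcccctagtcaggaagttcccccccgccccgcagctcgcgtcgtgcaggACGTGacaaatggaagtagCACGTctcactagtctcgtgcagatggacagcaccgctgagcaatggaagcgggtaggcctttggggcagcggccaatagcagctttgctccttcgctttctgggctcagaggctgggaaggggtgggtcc

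A promoter was listed for 35 of the 38 genes, taking the first listed start where there were several. The core ACGTG or GCGTG, on either strand, was in 9 of 15 glycolytic promoters (60.0%) and in 12 of 15 promoters of pyruvate dehydrogenase and the TCA cycle (80.0%). Of all 27025 promoters of this length 38.6% held it, and of those of tested genes 52.1%. ACGTG alone was in 4 of 15 glycolytic promoters (26.7%), in 5 of 15 of pyruvate dehydrogenase and the TCA cycle (33.3%) and in 20.3% of those of tested genes. Slc2a1, which fell, held it too, as did Pfkm, Ldha and Slc16a1, which were not called. Neither core was in the promoters of Aldoa, Gpi1, Tpi1 and Pkm, which fell, or of Hk1 and Eno2, which were not called. The E-box CACGTG, which contains ACGTG, was in 1 glycolytic promoter, that of Pfkm, against 6.05% of all promoters. TAATCC, a site of the photoreceptor factor CRX, was in 2 of 15 glycolytic promoters, those of Aldoc and Pfkp, against 6.38% of all. A match of these letters is a description and not a bound site.

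Pyruvate dehydrogenase links glycolysis to the TCA cycle, and its genes showed no called change. Pdha1, the E1 alpha subunit, had 2527, 3040.0 and 2704 normalized reads in the KO-labelled libraries and 2637, 2432 and 2174 in wild type, with KO 1 inside the wild-type range (log2 difference 0.19 with a 95% interval from -0.02 to 0.41, adjusted p = 0.239 by limma). Pdhb, the E1 beta subunit, had 7560.0, 7051 and 7550.3 against 7540.4, 7516 and 7233 (log2 difference -0.01 with a 95% interval from -0.15 to 0.14, adjusted p = 0.954 by limma). Dlat, the E2 subunit, had 3518, 4177 and 3659 against 3375, 3162 and 3225; all KO-labelled libraries were above wild type, and the difference did not pass (log2 difference 0.21 with a 95% interval from 0.03 to 0.40, adjusted p = 0.126 by limma) but was called after scaling to total reads (limma adjusted p = 0.0460). Pdk1, a kinase that switches the complex off, had 1325, 1527 and 1181 against 1828, 1519.5 and 1502, with KO 2 inside the wild-type range (log2 difference -0.27 with a 95% interval from -0.52 to -0.02, adjusted p = 0.163 by limma); it was called with the length trend removed (limma adjusted p = 0.0253).

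In the TCA cycle 1 of 13 genes passed the test. Suclg1, the alpha subunit of succinyl-CoA synthetase (chromosome 6, 73248505 to 73276907), had 8364, 8360.1 and 8744 normalized reads in the KO-labelled libraries and 7294, 6814 and 6805 in wild type. The groups did not overlap and it rose 1.22-fold (log2 difference 0.28 with SE 0.07, adjusted p = 0.0162 by limma), but the call was lost without KO 3, wild type 2 or wild type 3 and with a replicate block, with limma adjusted p up to 0.105. Mdh1, the cytosolic malate dehydrogenase of the malate-aspartate shuttle, had 35736, 35254 and 36324 against 39248, 39296 and 37687 (log2 difference -0.12 with a 95% interval from -0.24 to 0.01, adjusted p = 0.209 by limma). Mdh2, its mitochondrial counterpart, had 26989.8, 25717 and 27765 against 29993, 29205 and 28911 (log2 difference -0.13 with a 95% interval from -0.26 to -0.003, adjusted p = 0.178 by limma). In both malate dehydrogenases every KO-labelled library was below wild type, and neither passed the test. Sdha, the flavoprotein of succinate dehydrogenase, had 26954, 27914 and 27923 against 26487, 25064 and 26163 (log2 difference 0.09 with a 95% interval from -0.03 to 0.22, adjusted p = 0.344 by limma), with all KO-labelled libraries above wild type.

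The other 9 genes of the cycle did not pass. They are citrate synthase Cs, the isocitrate dehydrogenase subunits Idh3a, Idh3b and Idh3g, Ogdh of the 2-oxoglutarate dehydrogenase complex, the succinate dehydrogenase subunits Sdhb, Sdhc and Sdhd, and fumarase Fh1. Their log2 differences ran from -0.11 for Idh3g to 0.17 for Ogdh, and adjusted p from 0.216 to 0.964 (limma). The 95% intervals of all 9 lay between -0.29 and 0.36, so that a fall as large as the median of glycolysis was outside each of them. Sdhb, Sdhc and Sdhd had log2 differences of -0.09, -0.09 and -0.06, opposite in sign to Sdha of the same complex, except that Sdhd turned to 0.01 with the length trend removed. The sign of 8 uncalled genes among the 38 turned in at least 1 alternative.

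**Figure D3:**
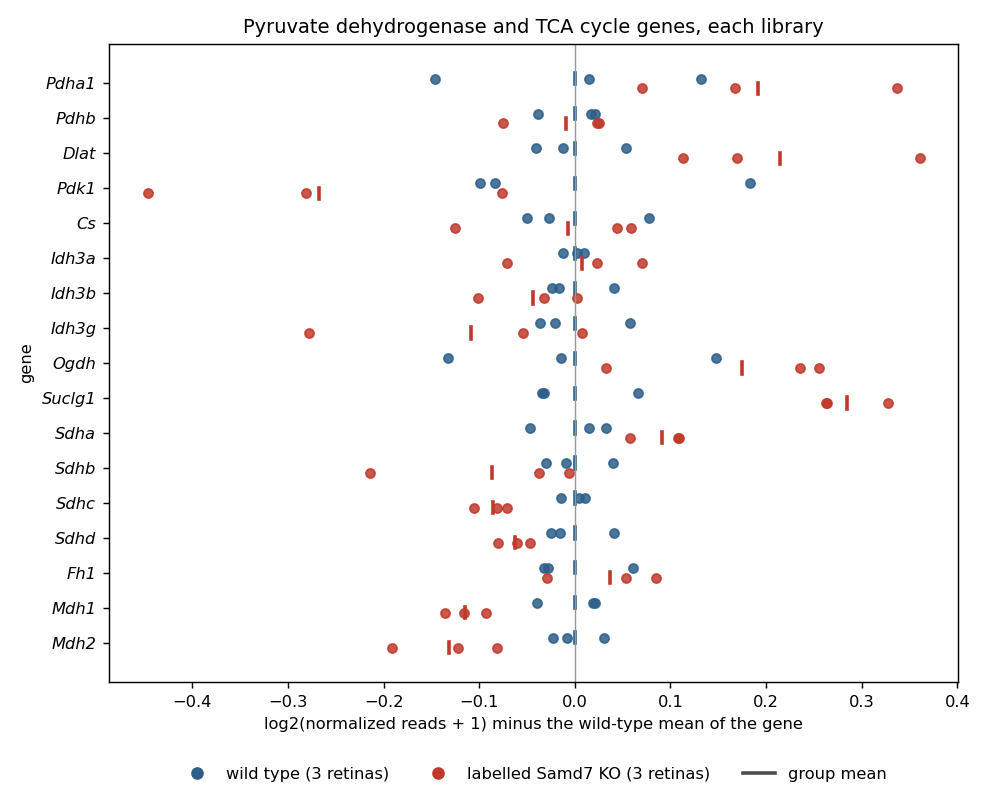
Level of each pyruvate dehydrogenase and TCA cycle gene (y axis) in each library, as log2(normalized reads + 1) minus the gene's wild-type mean (x axis, a narrower range than for glycolysis); points are libraries and short bars are group means. Suclg1 is the gene that passed the test, at 0.28; most others overlap between the groups.

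The ratio between genes in the same library does not depend on the scaling between libraries. It was compared for 9 pairs by an exact two-sided permutation test over the 6 libraries. For this test the smallest possible p is 0.10, so that no pair could pass 0.05. Each pair is of the same family, except Pdk1 and Pdha1, a kinase and a subunit of the complex that it switches off. The log2 ratio of Hk2 to Hk1 was -2.84, -2.73 and -2.93 in the KO-labelled libraries and -2.47, -2.38 and -2.52 in wild type, a difference of -0.38 (exact permutation p = 0.10, 0.129 adjusted over the 9 pairs). Hk2 was thus lower relative to Hk1 in all 3 KO-labelled libraries. The log2 ratio of Eno2 to Eno1 was -2.50, -2.45 and -2.50 in the KO-labelled libraries and -3.06, -2.93 and -2.90 in wild type, a difference of 0.48 (exact permutation p = 0.10, 0.129 adjusted). Eno2 made up 8.46% ± 0.445 of enolase transcripts per length in wild type and 11.4% ± 0.218 in the KO-labelled libraries (SD, n = 3).

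The ratio of Pfkm to Pfkl differed by 0.51 on the log2 scale, that of Slc2a3 to Slc2a1 by 0.74, that of Ldhb to Ldha by 0.15, that of Slc16a3 to Slc16a1 by -1.15 and that of Pdk1 to Pdha1 by -0.46, KO-labelled minus wild type. In these 5 pairs, too, the groups did not overlap, each at the smallest exact permutation p of 0.10 and 0.129 adjusted over the 9 pairs. Of single tested genes 31.1% did not overlap, and the share among other gene pairs was not counted. Hk2, Eno1, Pfkl, Slc2a1 and Slc16a3 were themselves called lower and their partners were not called. The ratios of those pairs therefore partly restate the results of the single genes. The 2 pairs whose ratios overlapped were Aldoc to Aldoa (difference 0.07, exact permutation p = 0.20) and Pfkp to Pfkl (difference 0.05, exact permutation p = 0.30). In both of those pairs each gene was itself called lower.

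**Figure D4:**
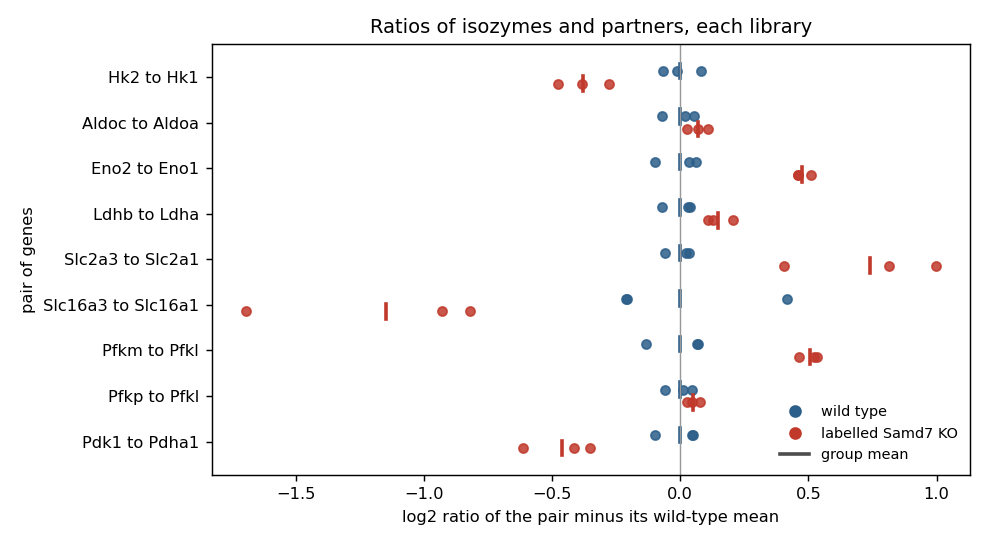
Log2 ratio of 9 pairs of genes (y axis) in each library, minus the wild-type mean of the pair (x axis); points are libraries and short bars are group means. The ratios of Eno2 to Eno1, Pfkm to Pfkl and Slc2a3 to Slc2a1 are higher in all KO-labelled libraries, those of Hk2 to Hk1, Slc16a3 to Slc16a1 and Pdk1 to Pdha1 are lower, and Aldoc to Aldoa and Pfkp to Pfkl overlap.

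Other genes of carbon metabolism, taken from lists by pathway, had at most 4 called members in each list. Among the other isozymes and regulators of glycolysis (16 tested of 19, 2 higher and 0 lower, median log2 difference -0.23), those that passed rose. They were 12.5% of the list, against 6.79% higher among all tested genes. Most of the list leaned the other way: 12 of the 16 had a log2 difference below 0. At an unadjusted limma p under 0.05, 6 were lower and 3 higher. Hkdc1, a hexokinase domain protein, had 501, 462 and 612 against 312, 272 and 309.7 (1.76-fold, log2 difference 0.81 with SE 0.13, adjusted p = 0.00187 by limma), and Adpgk, an ADP-dependent glucokinase, had 1684, 1828 and 1875 against 1280.0, 1306 and 1384 (1.36-fold, log2 difference 0.44 with SE 0.09, adjusted p = 0.00608 by limma). Pfkfb2, which makes the activator of phosphofructokinase, had 6399, 8129 and 6761 against 8339.5, 8827 and 8416 and did not pass (log2 difference -0.27 with a 95% interval from -0.47 to -0.08, adjusted p = 0.0695 by limma), but was called in 3 of 17 alternatives: with edgeR and upper-quartile factors, with the length trend removed, and without KO 2. In Pfkfb2, all KO-labelled libraries were below wild type. Of the other transporters and their partners (16 tested of 17, 0 higher and 2 lower, median log2 difference -0.01), Slc16a8 and Nxnl1 fell. Nxnl1, the gene of rod-derived cone viability factor, which promotes glucose uptake by cones, had 22111, 20283 and 22359 against 26779, 27239 and 27258 (1.26-fold lower, log2 difference -0.33 with SE 0.06, adjusted p = 0.00415 by limma).

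Around the mitochondrial steps, other genes of pyruvate entry, among them the pyruvate carriers and the remaining kinases and phosphatases of pyruvate dehydrogenase, had no called member (11 tested of 11, 0 higher and 0 lower, median log2 difference -0.03, with 0 at an unadjusted p under 0.05 and 0 by edgeR or DESeq2). Pdk2, a kinase of the complex, had 7534, 7260.0 and 7869 against 8710.0, 8021 and 8336 (log2 difference -0.15 with a 95% interval from -0.29 to 0.004, adjusted p = 0.199 by limma). Of the other TCA cycle genes (14 tested of 14, 1 higher and 2 lower, median log2 difference -0.02), Me2, the mitochondrial malic enzyme, fell 1.44-fold, at 2116, 2277 and 2126 against 3207, 3066 and 3137 (log2 difference -0.53 with SE 0.08, adjusted p = 6.71e-04 by limma). Its cytosolic relative Me1 rose 1.27-fold, at 8808, 11189.7 and 9813 against 7806, 7969 and 7677 (log2 difference 0.34 with SE 0.09, adjusted p = 0.0228 by limma). The Me1 call was lost in 3 of 17 alternatives, those without KO 3, wild type 2 or wild type 3 (adjusted p up to 0.106 by limma), while Me2 was called in all 17. Sdhaf1, an assembly factor of succinate dehydrogenase, fell 1.23-fold (log2 difference -0.30 with SE 0.08, adjusted p = 0.0367 by limma). Its call was lost in 6 of 17 alternatives, among them omission of any single library except KO 1 or wild type 1 (adjusted p up to 0.178 by limma). The shuttles that carry reducing power into mitochondria had calls in both directions (9 tested of 9, 2 higher and 2 lower, median log2 difference -0.08). Slc25a10, the dicarboxylate carrier, fell 1.42-fold (log2 difference -0.51 with SE 0.09, adjusted p = 0.00312 by limma) and Got2, the mitochondrial aspartate aminotransferase, fell 1.18-fold (log2 difference -0.24 with SE 0.06, adjusted p = 0.0270 by limma). The Got2 call was lost in 8 of 17 alternatives, among them those without any 1 library other than KO 2 (adjusted p up to 0.144 by limma). Of the aspartate-glutamate carriers, Slc25a12 rose 1.18-fold (log2 difference 0.24 with SE 0.06, adjusted p = 0.0291 by limma), a call lost in 7 of 17 alternatives, among them removal of the length trend and those without KO 3, wild type 2 or wild type 3 (adjusted p up to 0.248 by limma). Slc25a13, at 103, 210.5 and 145 against 48.8, 54.1 and 68.7, rose 2.67-fold (log2 difference 1.36 with SE 0.25, adjusted p = 0.00437 by limma).

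The largest change in any of these lists was in the pentose phosphate list (8 tested of 8, 1 higher and 0 lower, median log2 difference -0.04). H6pd, which starts this pathway inside the endoplasmic reticulum (chromosome 4, 149979474 to 150009023), had 1481, 1738 and 2086 against 339.7, 239 and 269 normalized reads and rose 6.26-fold (log2 difference 2.64 with SE 0.15, adjusted p = 2.94e-07 by limma). Tkt, the transketolase that returns carbon to glycolysis, had 19269.6, 17274 and 19764 against 21553, 20144 and 21209.6 and did not pass (log2 difference -0.16 with a 95% interval from -0.31 to -0.01, adjusted p = 0.156 by limma). Of the genes of glycogen and gluconeogenesis (11 tested of 15, 1 higher and 1 lower, median log2 difference -0.08), Pygl, a glycogen phosphorylase, rose 1.54-fold (log2 difference 0.62 with SE 0.09, adjusted p = 8.70e-04 by limma). Pgm1, which joins glycogen to glycolysis, fell 1.28-fold (log2 difference -0.35 with SE 0.07, adjusted p = 0.00715 by limma).

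Genes of the hypoxia response outside the 38 (15 tested of 17, 0 higher and 2 lower, median log2 difference -0.20) included 2 that fell, 3 by edgeR and 4 by DESeq2. Bnip3, a mitophagy receptor induced by hypoxia, had 7807, 8370.5 and 8068 against 12334, 11508 and 11229 (1.45-fold lower, log2 difference -0.53 with SE 0.07, adjusted p = 2.61e-04 by limma). Ankrd37 had 2167, 1717 and 1784 against 2519.7, 2488 and 2610.1 (1.34-fold lower, log2 difference -0.43 with SE 0.10, adjusted p = 0.0128 by limma), a call lost without KO 3 or wild type 3 (adjusted p up to 0.0743 by limma). Hif1a, the gene of hypoxia-inducible factor 1 alpha, had 16339, 21837 and 17963 against 14982, 15199 and 15679 and did not pass (log2 difference 0.28 with a 95% interval from 0.08 to 0.48, adjusted p = 0.0728 by limma), but was called in 3 of 17 alternatives: with DESeq2, after scaling to total reads, and without KO 1. Ndrg1, also induced by hypoxia, had 12112, 13921 and 14155 against 16017, 13924 and 14889.9 (log2 difference -0.16 with a 95% interval from -0.33 to 0.01, adjusted p = 0.227 by limma). For Hif1a all KO-labelled libraries were above wild type, opposite to Bnip3. DESeq2 called 1 hypoxia gene, 1 other transporter and 2 pentose phosphate genes higher.

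**Figure D5:**
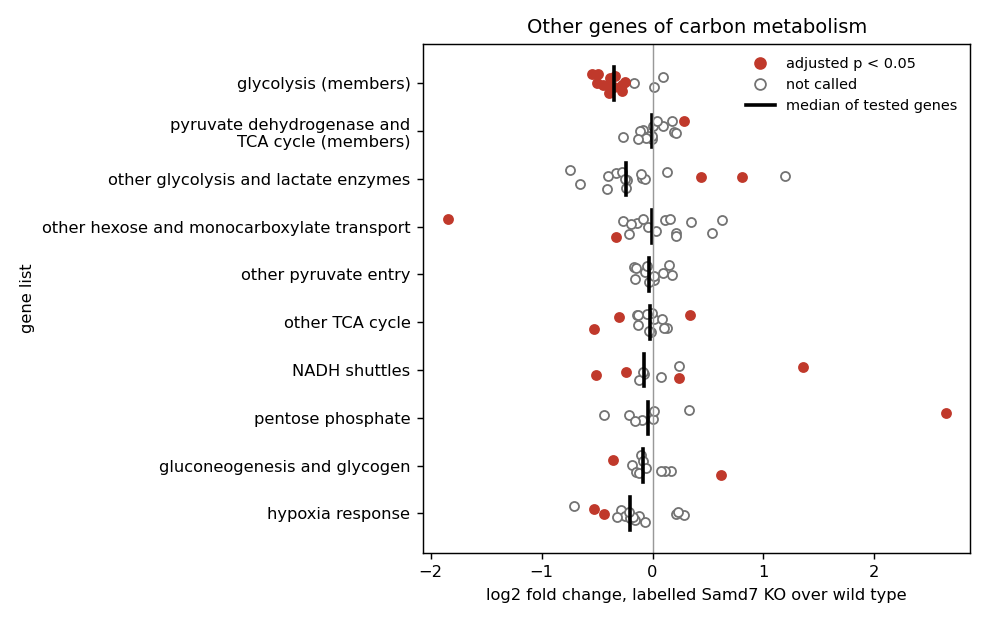
Log2 fold change (x axis, libraries labelled Samd7 KO over wild type) of each tested gene by list (y axis); filled points passed an adjusted p of 0.05 and black bars are medians. The glycolysis row has a median of -0.35, with Pfkm and Eno2 right of 0, and H6pd of the pentose phosphate list lies farthest right at 2.64.

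The authors' deposited table, from DESeq2 on the same libraries, listed 14 of the 38 genes lower and 1 higher at an adjusted p under 0.05, and all 14 of those lower were also called lower here.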

How the data were processed

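Polyadenylated RNA of 6 retinas was measured by sequencing. Per the labels' protocols, cDNA was made with the SMARTer Ultra Low kit, sheared and amplified for 15 cycles, and no molecular identifiers are described. The submitters' processing notes name STAR 2.7.3a, HTSeq 0.12.4, cutadapt 3.0, DRAGEN, DESeq2 and SAMtools 1.9, and the builds GRCm38 and mm10. The role of each, the use of strand and the handling of reads with several matches are not given in the sources used. Each deposited signal value is a gene's reads over a library size factor, per the file headers and the values: all 166478 values above 0 were whole reads within 0.01. The deposited log2 fold changes, p-values and Wald scores are the authors'.

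As the values are normalized, limma-trend was run on log2(value + 1) for 20277 genes reaching 10 in 3 or more libraries, which all 38 did. Fold changes are ratios of group means. Lengths are of the GENCODE principal transcript, and positions and promoters are from RefSeq GRCm38.p6. Alternatives were edgeR (3 scalings), DESeq2, total-read scaling, 2 pseudocounts, 2 filters, removal of the length trend (18216 genes), blocking on replicate number and omission of single libraries. Software was R 4.3.3 with limma (3.58.1), edgeR (4.0.16) and DESeq2 (1.42.0). Chi-square per degree of freedom between replicates was 6.69 to 30.5, above counting noise for every pair. The tests were tried on simulated data. The 38 genes and all lists were chosen with earlier results of these data known. Named were the 38, and from other lists the called genes and up to 2 more of the highest read level, which is not corrected for length.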

Additional observations from a re-analysis of the deposited data

How the results depend on the processing

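Of the 15 genes called among the 38, 10 were called in the same direction in all 17 alternatives; Gpi1, Aldoa, Aldoc, Tpi1 and Suclg1 were not. The number of glycolytic enzymes called lower was 8 to 12 of 15, lowest without a filter, where more genes were tested, and their median log2 difference was -0.39 to -0.28. The median of pyruvate dehydrogenase and the TCA cycle was -0.0437 with upper-quartile factors and 0.0483 after scaling to total reads, beside shifts of the median of all genes to -0.0317 and 0.0583. Scaling to total reads also moved the share of called genes that were higher from 56.6% to 71.2%. Omission of 1 library at a time yielded 1313 (without wild type 3) to 3247 called genes in all, with 1497 without KO 3 and 1470 without wild type 2. Lower genes numbered 509 (without wild type 3) to 1385, among them 639 when KO 3 and 576 when wild type 2 was omitted; the cause was not tested.

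The replicate numbers did not pair the libraries: same-numbered libraries had correlations of -0.18, -0.13 and -0.01 in their deviations from the group means, and no library correlated best with its own number. With a replicate block, 656 genes were lower against 1056, and 10 glycolytic enzymes were called, with Gpi1 (limma adjusted p = 0.0515), Tpi1 (0.0549) and Suclg1 (0.0667) lost. Groups of 3 limit what the exact tests can show.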
